A study of Homo sapiens with 12 samples.

Results

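The genes described here belong to the aryl hydrocarbon receptor (AHR) pathway and to retinoic acid turnover. They are AHR, ARNT, AHRR, TIPARP, CYP1A1 and CYP1B1 on the AHR side, and CYP26A1, CYP26B1, DHRS3 and RARB on the retinoic acid side, found by name in a table of 58735 genes, of which they are 10. CYP1A1 and CYP26B1 were chosen by their fall after H2O2, so their H2O2 responses are given as a description with no test, and the question was whether the receptor pathways behind them followed. The other genes were taken for their place in the pathways. RNA was sequenced from HaCaT, an immortalized human skin keratinocyte line, and from TIGK, an immortalized human gingival keratinocyte line, both cultured in the same keratinocyte medium. In each line 3 samples were left untreated (Hctrl, Tctrl) and 3 were exposed to 5 mM H2O2 for 3 h (Hhp, Thp), which made 12 libraries. Each line stands for 1 cell line and not for a tissue, and nothing says that the 3 samples of a group came from separate cultures, so p-values measure the spread between these samples, which may be technical. The treatment labels of the samples change the last digit of the formula from replicate to replicate, whereas the treatment protocol and the methods name H2O2 for all treated samples.

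AHR is a ligand-activated transcription factor that waits in the cytosol in a complex with HSP90 chaperones. Once bound by a ligand, such as a tryptophan derivative or a dioxin, it enters the nucleus, pairs with ARNT and switches on CYP1A1, CYP1B1, AHRR and TIPARP. AHRR, a repressor that competes with AHR for ARNT, and TIPARP, an ADP-ribosyltransferase that marks AHR for loss, close a feedback loop, and CYP1A1 breaks down AHR ligands. Retinoic acid, made from retinol by way of retinaldehyde, binds the receptors RARA, RARB and RARG and is broken down by the CYP26 enzymes. In keratinocytes both pathways are known to act on differentiation.

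The DNA before the starts of these genes is shown because it holds, or lacks, the letters that AHR with ARNT and the retinoic acid receptors are known to bind. The RefSeq promoter table (GRCh38.p14) matched 9 of the 10 genes, with 18 transcription starts. CYP1B1 had no entry. The 250 bases before each start were searched on both strands for GCGTG, the core of the AHR and ARNT element. They were also searched for the direct repeat of the retinoic acid element, written as GTTCA or GGTCA, then 6 letters of any kind, then GTTCA or GGTCA. The motifs can overlap, since the 6 free letters of the repeat may hold the AHR core, and 0 of the 18 windows held both. Capitals mark the matches in the gene's own direction, 5′ to 3′, and CACGC is GCGTG on the opposite strand.
CYP1A1 (chr15:74725529-74725778, - strand): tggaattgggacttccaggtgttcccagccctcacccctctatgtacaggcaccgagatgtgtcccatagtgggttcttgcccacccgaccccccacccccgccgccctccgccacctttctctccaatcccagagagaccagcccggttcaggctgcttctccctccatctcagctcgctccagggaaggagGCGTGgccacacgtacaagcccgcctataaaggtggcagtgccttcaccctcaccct
AHRR, a start (chr5:321464-321713, + strand): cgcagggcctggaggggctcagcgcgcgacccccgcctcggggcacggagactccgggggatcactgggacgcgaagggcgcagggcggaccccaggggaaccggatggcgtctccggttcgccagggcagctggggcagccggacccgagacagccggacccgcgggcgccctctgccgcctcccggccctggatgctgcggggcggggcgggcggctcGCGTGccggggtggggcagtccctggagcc
AHRR, another start (chr5:322360-322609, + strand): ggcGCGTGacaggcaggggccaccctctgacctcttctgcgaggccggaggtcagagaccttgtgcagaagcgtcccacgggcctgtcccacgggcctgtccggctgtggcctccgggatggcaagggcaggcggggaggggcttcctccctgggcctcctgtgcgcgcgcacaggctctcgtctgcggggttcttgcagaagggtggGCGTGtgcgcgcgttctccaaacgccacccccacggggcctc
TIPARP (chr3:156674340-156674589, + strand): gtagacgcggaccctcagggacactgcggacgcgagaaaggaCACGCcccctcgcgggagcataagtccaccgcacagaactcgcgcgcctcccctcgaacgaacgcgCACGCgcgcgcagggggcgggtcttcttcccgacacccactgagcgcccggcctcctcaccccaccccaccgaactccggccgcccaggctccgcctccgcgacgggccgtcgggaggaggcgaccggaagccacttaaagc
CYP26A1 (chr10:93073643-93073892, + strand): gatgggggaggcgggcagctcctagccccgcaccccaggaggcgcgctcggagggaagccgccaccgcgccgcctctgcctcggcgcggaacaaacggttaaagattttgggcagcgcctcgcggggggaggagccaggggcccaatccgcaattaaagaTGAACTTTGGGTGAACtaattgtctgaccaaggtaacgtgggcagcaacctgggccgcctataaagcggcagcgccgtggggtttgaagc
RARB (chr3:25428013-25428262, + strand): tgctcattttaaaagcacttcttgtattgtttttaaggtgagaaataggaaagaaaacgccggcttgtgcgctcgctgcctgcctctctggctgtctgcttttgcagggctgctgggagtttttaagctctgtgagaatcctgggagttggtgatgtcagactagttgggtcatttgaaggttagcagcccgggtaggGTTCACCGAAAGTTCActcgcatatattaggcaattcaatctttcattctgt
CYP26B1 (chr2:72147863-72148112, - strand): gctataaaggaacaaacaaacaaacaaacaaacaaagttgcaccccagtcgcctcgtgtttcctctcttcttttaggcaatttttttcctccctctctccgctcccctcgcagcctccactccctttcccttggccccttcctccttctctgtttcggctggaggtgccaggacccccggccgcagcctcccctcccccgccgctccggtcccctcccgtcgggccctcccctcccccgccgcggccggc
GCGTG lay in the windows of both AHRR starts, 1 of 3 TIPARP starts, the CYP1A1 start and a further RARB start, which makes 5 of 18 windows. Of all 35116 windows in the table, 11313 (32.2%) held it, the share to read the 5 of 18 against. The direct repeat was found before 1 CYP26A1 start and 1 RARB start and in 52 of all windows (0.148%). The searched letters are the textbook element, which was described in such genes, so these matches are a description and no test. The CYP26B1 window held neither motif, which says only that these letters were not within its 250 bases.

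Library totals ranged from 30426400 to 49034200 counts. All 6 keratinocyte markers looked for (KRT5, KRT14, TP63, ITGA6, ITGB4, LAMB3) were detected in all 4 groups. A list of 5 fibroblast markers summed to between 798 and 932 normalized counts in TIGK and to between 311 and 418 in HaCaT, with COL1A2 at 0 in every library, and its part in the differences between the lines was not tested. Levels are given as normalized counts, that is, counts scaled by TMM factors to a library of mean size. Log2 fold changes with standard errors (SE) come from edgeR's quasi-likelihood test, and a gene was called where its adjusted p (Benjamini-Hochberg over the 16618 genes tested) was under 0.01. In bulk RNA, fewer cells that express a gene and less RNA per cell cannot be told apart.

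After H2O2 the AHR pathway members split: AHRR fell in both lines, TIPARP rose in TIGK, CYP1B1 fell in HaCaT, and AHR and ARNT passed the test in neither line. Among the 7 genes tested for an H2O2 response, 2 were called in TIGK, where 23.2% of all genes were, and 2 in HaCaT, where 34.1% of all genes were. The difference between the responses of the lines was called for TIPARP and CYP1B1, 2 of 7 genes, beside 5.30% of all genes. Between the lines 7 of 9 genes differed before H2O2 and 8 of 9 after it, beside 59.9% and 60.0% of all genes, or 6 of 8 and 7 of 8 without RARB. CYP26A1 had a mean of 3.58 raw counts and was not tested, and RARB, with a mean of 11, passed the filter only through its HaCaT libraries, so that it had to differ between the lines where it was tested. The order of these genes' levels in each library can be read from the plot of normalized counts.

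**Figure D1:**
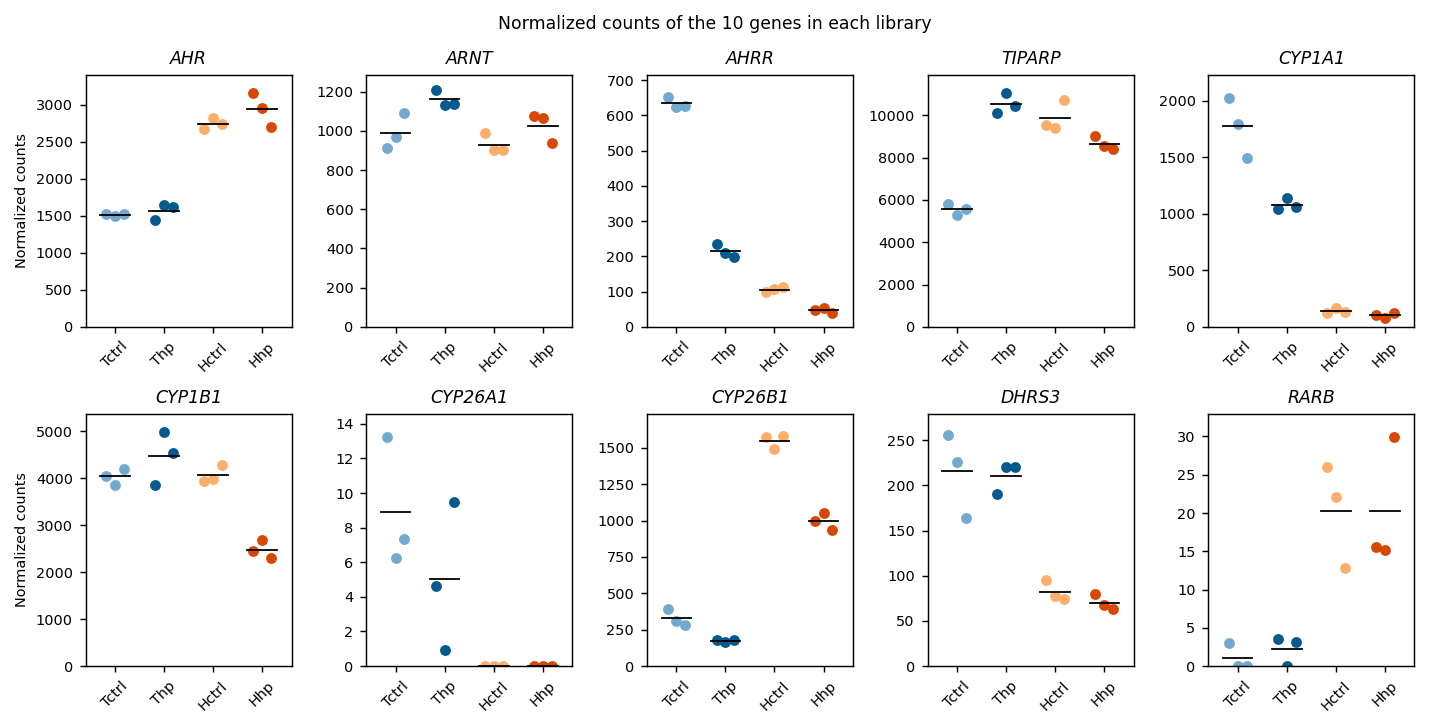
Normalized counts (vertical axis, from 0, a scale of its own for each gene) of the 10 genes in untreated TIGK (Tctrl), TIGK after H2O2 (Thp), untreated HaCaT (Hctrl) and HaCaT after H2O2 (Hhp). Points are libraries and bars are means of 3 libraries. AHRR steps down in both lines, TIPARP is higher after H2O2 in TIGK, and CYP26A1 is at 0 in all 6 HaCaT libraries.

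Gene positions are those of the deposited table (GRCh38). AHR (ENSG00000106546, chr7:16916359-17346152, + strand), the receptor, had 1520, 1496 and 1528 normalized counts in untreated TIGK and 1436, 1641 and 1615 after H2O2. HaCaT had 2672, 2815 and 2742 untreated and 3157, 2948 and 2698 after H2O2. Treated and untreated libraries overlapped in both lines, while every HaCaT library lay above every TIGK library. The response was 0.05 on the log2 scale in TIGK (SE 0.0681, edgeR adjusted p = 0.624, 95% interval -0.10 to 0.19). In HaCaT it was 0.10 (SE 0.0661, edgeR adjusted p = 0.240, 95% interval -0.04 to 0.24). HaCaT was 1.81-fold above TIGK untreated (log2 0.86, SE 0.0675, edgeR adjusted p = 1.26e-09) and 1.87-fold after H2O2 (log2 0.91, SE 0.0674, edgeR adjusted p = 5.46e-10).

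ARNT (ENSG00000143437, chr1:150809705-150876768, - strand), the partner that AHR shares with the hypoxia factors, had 913, 969 and 1091 normalized counts in untreated TIGK and 1211, 1134 and 1137 after H2O2. Its groups did not overlap in TIGK, and the response of 0.23 (log2, SE 0.0827) missed the limit with an edgeR adjusted p of 0.0390. In HaCaT the values were 988, 903 and 901 untreated and 1076, 1067 and 937 after H2O2, with overlap and a response of 0.14 (log2, SE 0.0833, edgeR adjusted p = 0.181). The lines did not differ in ARNT past the limit, before H2O2 (log2 -0.09, edgeR adjusted p = 0.354) or after it (log2 -0.18, edgeR adjusted p = 0.0652). Per kilobase (RPKM), AHR was 1.24 ± 0.107 times ARNT in untreated TIGK and 2.38 ± 0.177 times in untreated HaCaT (SD, n = 3).

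AHRR (ENSG00000063438, chr5:304176-438291, + strand), the repressor, showed the largest H2O2 response in each line among the AHR pathway members tested. Untreated TIGK had 651, 624 and 627 normalized counts, and TIGK after H2O2 had 236, 208 and 199. The fall was 2.97-fold (log2 -1.57, SE 0.126, edgeR adjusted p = 2.18e-08). Untreated HaCaT had 97.8, 106 and 112, and HaCaT after H2O2 had 46.7, 53.6 and 38.4. There the fall was 2.27-fold (log2 -1.18, SE 0.163, edgeR adjusted p = 1.33e-05). No treated library reached the level of an untreated library of its line, and the 4 groups followed one another without overlap from Tctrl through Thp and Hctrl to Hhp. The responses of the lines differed by -0.39 (log2, SE 0.209, edgeR adjusted p = 0.258, 95% interval -0.82 to 0.05), which did not pass the limit. AHRR was lower in HaCaT than in TIGK, 6.04-fold untreated (log2 -2.59, SE 0.134) and 4.62-fold after H2O2 (log2 -2.21, SE 0.155), with edgeR adjusted p-values of 2.41e-12 and 2.35e-10. As a ratio of RPKM values, AHRR was 0.441 ± 0.00940 of AHR in untreated TIGK and 0.145 ± 0.0238 after H2O2, and 0.0403 ± 0.00223 and 0.0166 ± 0.00225 in HaCaT (SD, n = 3). AHRR overlaps PDCD6 on the same strand, and PDCD6 held 2291 to 4179 raw counts per library, against a mean of 248 for AHRR. How the counting split reads in the overlap is not given in the sources used here.

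TIPARP (ENSG00000163659, chr3:156673235-156706770, + strand) had H2O2 responses that differed between the lines. TIGK had 5816, 5300 and 5571 normalized counts untreated and 10126, 11076 and 10448 after H2O2, a rise of 1.90-fold (log2 0.92, SE 0.0607, edgeR adjusted p = 1.21e-09). HaCaT had 9554, 9401 and 10723 untreated and 9019, 8531 and 8411 after H2O2. These HaCaT groups did not overlap, and the response of -0.19 (log2, SE 0.0600) missed the limit in the edgeR test with an adjusted p of 0.0131. It passed with DESeq2 (adjusted p = 0.00399), with RLE size factors (0.00926) and without the filter on low counts (0.00233). It also passed when Hhp replicate 1, Thp replicate 2, Thp replicate 3 or Tctrl replicate 2 was left out, with edgeR adjusted p-values of 0.00331, 0.00574, 0.00673 and 0.00510. The difference of the responses was 1.12 (log2, SE 0.0853, edgeR adjusted p = 8.31e-08). HaCaT was 1.78-fold above TIGK untreated (log2 0.83, SE 0.0606) and 1.22-fold below it after H2O2 (log2 -0.29, SE 0.0600), with edgeR adjusted p-values of 4.03e-10 and 0.000326.

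CYP1A1 (ENSG00000140465, chr15:74719542-74725610, - strand), the P450 most used as a readout of AHR activity, had 2030, 1797 and 1497 normalized counts in untreated TIGK and 1042, 1138 and 1064 after H2O2. HaCaT held far less, with 125, 165 and 129 untreated and 103, 80.4 and 120 after H2O2. Untreated and treated libraries did not overlap in either line, which belongs to the fall it was selected on. The fitted values were -0.71 in TIGK (log2, SE 0.114) and -0.45 in HaCaT (log2, SE 0.164), or 1.64-fold and 1.36-fold lower after H2O2. The choice was made on the fall and not on the difference between the lines, although both come from the same libraries. That difference was large: CYP1A1 was 12.8-fold lower in untreated HaCaT (log2 -3.68, SE 0.136, edgeR adjusted p = 1.57e-14) and 10.6-fold lower after H2O2 (log2 -3.41, SE 0.144, edgeR adjusted p = 1.17e-13). Thus the line with the higher AHR count had the lower CYP1A1 and AHRR counts, in all 3 libraries of either condition.

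CYP1B1 (ENSG00000138061, chr2:38066973-38109902, - strand), a P450 that AHR also induces and that acts on steroids and on procarcinogens, did not differ between the untreated lines past the limit. TIGK had 4055, 3868 and 4201 normalized counts untreated and HaCaT 3938, 3988 and 4284 (log2 0.01, SE 0.0778, edgeR adjusted p = 0.918, 95% interval -0.15 to 0.17), and the sign of this value turned with the scaling. After H2O2, HaCaT had 2445, 2684 and 2295, below each of its untreated libraries, a fall of 1.64-fold (log2 -0.72, SE 0.0791, edgeR adjusted p = 1.05e-06). TIGK after H2O2 had 3868, 4984 and 4545, which overlapped its untreated libraries (log2 0.14, SE 0.0777, edgeR adjusted p = 0.156). The responses differed by 0.86 (log2, SE 0.111, edgeR adjusted p = 4.75e-05), and after H2O2 CYP1B1 was 1.81-fold lower in HaCaT than in TIGK (log2 -0.85, SE 0.0791, edgeR adjusted p = 1.32e-08). On the opposite strand lie RMDN2 and CYP1B1-AS1 with 54 to 253 and 13 to 290 raw counts per library, against a mean of 3817 for CYP1B1. Whether counting used the strand is not given in the sources used here.

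The balance of the CYP1 enzymes differed with line and treatment. By RPKM, CYP1A1 was 0.771 ± 0.131 of CYP1B1 in untreated TIGK and 0.427 ± 0.0388 after H2O2 (SD, n = 3). In HaCaT it was 0.0602 ± 0.0106 untreated and 0.0726 ± 0.0194 after H2O2, with overlapping libraries. The ratio was therefore lower after H2O2 in TIGK, where CYP1A1 was lower and CYP1B1 did not pass the test, and its HaCaT libraries overlapped, where both enzymes had lower counts. It contains CYP1A1, which was chosen for its fall, so no test was made.

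**Figure D2:**
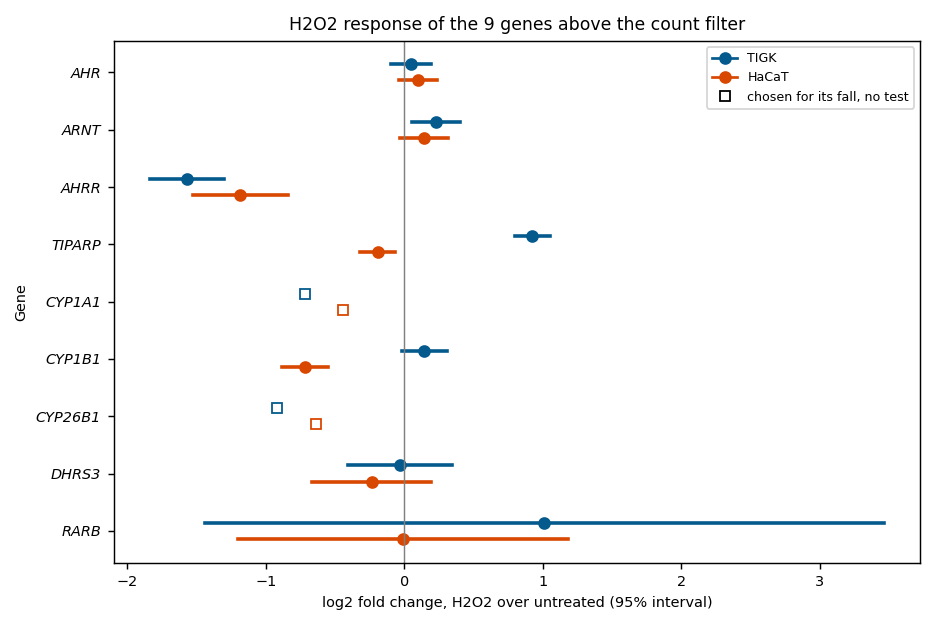
Log2 fold change of H2O2 over untreated (horizontal axis) for the 9 genes that averaged 10 or more raw counts per library, in TIGK (blue) and HaCaT (orange). Circles carry 95% intervals, and open squares mark CYP1A1 and CYP26B1, which were chosen for their fall and carry no interval. AHRR lies below 0 in both lines, TIPARP lies at 0.92 in TIGK and at -0.19 in HaCaT, and the interval of RARB is the widest.

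A list of 24 further genes of the AHR pathway was read beside these members, and 21 of them were tested. In TIGK 7 rose and 8 fell (71.4% called, beside 23.2% of all genes, of which 1699 rose and 2151 fell), with a median log2 fold change of -0.12 beside 0.0084 over all genes. In HaCaT 7 rose and 5 fell (57.1% called, beside 34.1% of all genes, of which 3135 rose and 2529 fell), with a median of 0.15 beside 0.038. Of the chaperones that hold AHR in the cytosol, HSP90AA1, the inducible HSP90, rose by 0.41 in TIGK (log2, SE 0.0512, edgeR adjusted p = 5.92e-06) and by 0.47 in HaCaT (SE 0.0512, edgeR adjusted p = 8.63e-07).

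Of the 12 tested genes described as AHR targets, 3 rose and 5 fell in each line, beside 23.2% of all genes called in TIGK and 34.1% in HaCaT. NQO1, IL1B, UGT1A6 and ALDH3A1, the last with few counts in TIGK, were called in neither line. NQO1 had means of 4750 normalized counts in untreated TIGK and 4528 after H2O2, and 1490 and 1559 in HaCaT. For UGT1A6 the means were 25.1 and 23.0 in TIGK, and 70.3 and 78.5 in HaCaT. FLG, the filaggrin gene of the skin barrier, fell by 1.83 in TIGK (log2, SE 0.272, edgeR adjusted p = 3.89e-05) and by 2.01 in HaCaT (SE 0.148, edgeR adjusted p = 6.36e-09). Its level was far apart in the lines, at 165, 171 and 258 normalized counts in untreated TIGK and 19244, 17268 and 22570 in untreated HaCaT. SLC7A5, a transporter of large amino acids such as tryptophan, fell by 0.77 in TIGK and by 0.84 in HaCaT (log2, SE 0.0705 and 0.0707). SERPINB2, a protease inhibitor, fell by 0.73 in TIGK and by 1.38 in HaCaT (log2, SE 0.112 and 0.0997). EREG, an EGF receptor ligand, fell by 0.88 in HaCaT (log2, SE 0.0864, edgeR adjusted p = 2.39e-07). It was called as fallen in TIGK too, from a mean of 10768 to 8382 normalized counts. Among those that rose, PTGS2, the inducible cyclooxygenase, gained 0.93 in TIGK and 0.57 in HaCaT (log2, SE 0.0787 and 0.0875). NFE2L2, which encodes the antioxidant factor NRF2, rose by 0.36 in TIGK (log2, SE 0.0513, edgeR adjusted p = 2.37e-05). In HaCaT it was called as risen too, from a mean of 4846 to 5793 normalized counts. OVOL1, a differentiation factor, rose by 0.74 in HaCaT (log2, SE 0.143, edgeR adjusted p = 0.000364). Its rise of 0.54 in TIGK (SE 0.139, edgeR adjusted p = 0.00558) no longer passed without Tctrl replicate 2 or 3 or Thp replicate 2 or 3, where it lay between 0.46 and 0.57.

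The genes that share ARNT with AHR or resemble it (HIF1A, EPAS1, ARNT2) all fell in TIGK, where 23.2% of all genes were called. In HaCaT they did not pass, at -0.04 for HIF1A, 0.028 for EPAS1 and -0.29 for ARNT2 (log2, SE 0.0533, 0.0540 and 0.232, edgeR adjusted p = 0.543, 0.706 and 0.318). EPAS1, the hypoxia factor HIF-2α, fell by 0.38 in TIGK (log2, SE 0.0540, edgeR adjusted p = 2.75e-05). Its responses differed between the lines by -0.40 (log2, SE 0.0764, edgeR adjusted p = 0.00188). The difference was -0.33 for HIF1A, the hypoxia factor HIF-1α (log2, SE 0.0749, edgeR adjusted p = 0.00787), 0.65 for SERPINB2 (SE 0.149, edgeR adjusted p = 0.00767) and 0.52 for EREG (SE 0.120, edgeR adjusted p = 0.00775). These 4 of 21 genes (beside 5.30% of all genes) lay near the limit: 1 gene was called without Tctrl replicate 2 or 3, Thp replicate 1 or Hctrl replicate 2 or 3, 2 without Thp replicate 3, Hctrl replicate 1 or Hhp replicate 2, and 0 without Thp replicate 2. The call of HIF1A was also lost with RLE size factors, with total counts and without the filter on low counts.

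Between the untreated lines 7 of the 21 AHR pathway genes were higher in HaCaT and 12 were higher in TIGK (90.5% called, beside 59.9% of all genes, 4838 of them higher in HaCaT and 5113 in TIGK). Above all, HaCaT had more FLG (log2 6.64, SE 0.195), SERPINB2 (4.08, SE 0.113) and ARNT2 (1.36, SE 0.245). ALDH3A1, an aldehyde dehydrogenase, passed the filter only through its HaCaT libraries, so its counts are given with no test. They were 6, 2 and 16 raw counts in untreated TIGK and 119, 131 and 96 in untreated HaCaT. TIGK had more KYNU, the kynureninase of tryptophan breakdown (log2 -4.06, SE 0.138), PTGS2 (-2.88, SE 0.0873), SLC7A5 (-1.79, SE 0.0723) and NQO1, a quinone reductase (-1.67, SE 0.0870). After H2O2 the counts were 7 and 9 (76.2% called, beside 60.0% of all genes). Both comparisons count ALDH3A1 and IL4I1, which passed the filter only through HaCaT and only through TIGK. These had to differ between the lines where they were tested, which raises both shares. Along with CYP1A1 and AHRR, which were higher in TIGK, the described targets thus did not all lie on the side of either line.

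**Figure D3:**
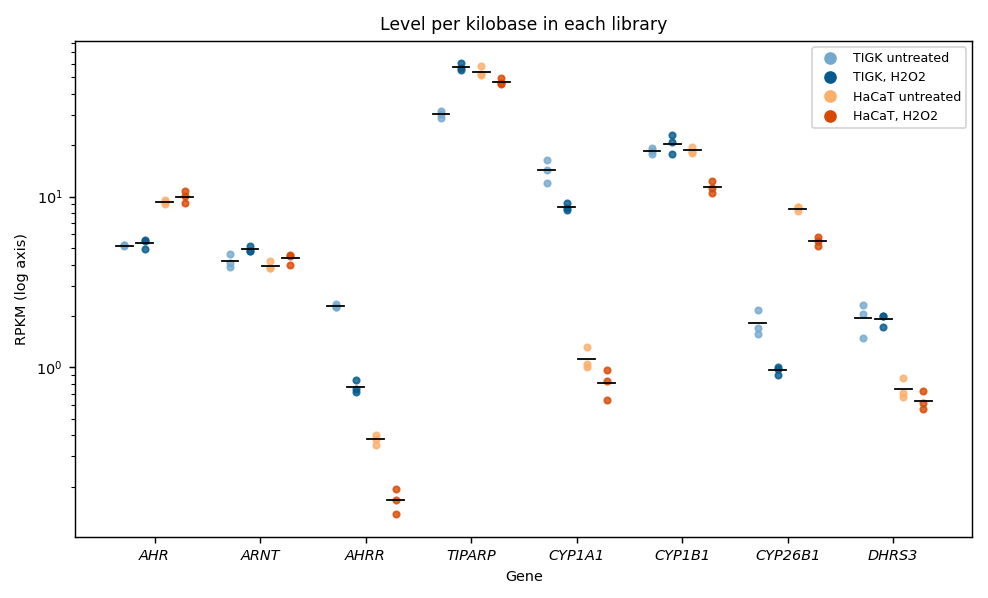
RPKM (logarithmic axis) of 8 of the 10 genes in each library, with bars at the mean of 3 libraries. CYP26A1 and RARB, with few or 0 counts, are left out. AHR lies higher in HaCaT while CYP1A1 and AHRR lie higher in TIGK, and CYP26B1 and DHRS3 lie on opposite sides of the lines.

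On the retinoic acid side, CYP26B1 (ENSG00000003137, chr2:72129238-72148038, - strand), which oxidizes retinoic acid for removal, was the most abundant CYP26 gene in both lines. TIGK had 393, 311 and 285 normalized counts untreated and 182, 165 and 177 after H2O2. HaCaT had 1577, 1491 and 1581 untreated and 996, 1049 and 937 after H2O2. The libraries did not overlap within either line, which belongs to the fall it was chosen for, and the fitted values were -0.92 in TIGK (log2, SE 0.114) and -0.64 in HaCaT (log2, SE 0.0949), or 1.89-fold and 1.56-fold lower after H2O2. Between the lines, HaCaT was 4.70-fold higher untreated (log2 2.23, SE 0.102, edgeR adjusted p = 3.85e-13) and 5.70-fold higher after H2O2 (log2 2.51, SE 0.109, edgeR adjusted p = 1.84e-13). The choice was made on the fall and not on this difference, but both come from the same libraries. Each treated HaCaT library still held more CYP26B1 than any untreated TIGK library. CYP1A1 and CYP26B1 thus had opposite line differences, although both were lower after H2O2.

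CYP26A1 (ENSG00000095596, chr10:93073475-93077890, + strand), the CYP26 enzyme that retinoic acid induces most directly, was found in TIGK alone, with 13, 6 and 7 raw counts untreated and 4, 1 and 12 after H2O2. All 6 HaCaT libraries had 0 counts. Against a floor of 3 counts in each HaCaT library, the mean of untreated TIGK was 3.12 times the floor and that of TIGK after H2O2 1.50 times. These ratios leave out the spread of the TIGK counts, and Thp replicate 2, with 1 raw count, lay below the floor. They are therefore not lower bounds on the difference. The TIGK groups overlapped, and a response was not detectable at this depth. The CYP26A1 window with the direct repeat is among those printed above. By RPKM, CYP26B1 made up 83.6 ± 1.47% of the summed CYP26A1, CYP26B1 and CYP26C1 level in untreated TIGK and 78.6 ± 3.08% after H2O2, against 99.9 ± 0.0982% in untreated HaCaT (SD, n = 3).

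DHRS3 (ENSG00000162496, chr1:12567910-12617731, - strand), which returns retinaldehyde to retinol and so withholds it from retinoic acid synthesis, had 256, 226 and 164 normalized counts in untreated TIGK and 190, 221 and 220 after H2O2. HaCaT had 95.5, 77.4 and 74.1 untreated and 80.1, 67.6 and 63.0 after H2O2. Treated and untreated libraries overlapped in both lines (log2 -0.03, SE 0.178, edgeR adjusted p = 0.908 in TIGK, and -0.24, SE 0.205, edgeR adjusted p = 0.368 in HaCaT), and intervals of -0.41 to 0.34 and -0.67 to 0.19 leave room for moderate changes. DHRS3 was 2.60-fold lower in HaCaT than in TIGK untreated (log2 -1.38, SE 0.190, edgeR adjusted p = 2.73e-06) and 3.00-fold lower after H2O2 (log2 -1.58, SE 0.196, edgeR adjusted p = 6.89e-07).

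RARB (ENSG00000077092, chr3:25174332-25597932, + strand), a retinoic acid receptor with the direct repeat before 1 of its starts, was close to silent. TIGK had 3, 0 and 0 raw counts untreated and 3, 0 and 4 after H2O2, and HaCaT had 34, 20 and 13 untreated and 14, 13 and 28 after H2O2. Within each line the groups overlapped, and the H2O2 response could not be resolved at this depth, with intervals of -1.44 to 3.46 in TIGK and -1.20 to 1.18 in HaCaT (log2). Every HaCaT library lay above every TIGK library. Since RARB passed the filter only through HaCaT, these counts are a description and no test of the lines is given. RARB lies opposite TOP2B, which held 2462 to 6025 raw counts per library, and reads of either strand cannot be told apart where strand was not used.

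A list of 35 further genes of the retinoid pathway was read in the same way, and 27 of them were tested. In TIGK 2 rose and 5 fell, and these 25.9% lay near the 23.2% of all genes called, with a median log2 fold change of -0.021 beside 0.0084 over all genes. In HaCaT 4 rose and 10 fell (51.9% called, beside 34.1% of all genes), with a median of -0.22 beside 0.038. ALDH1A3, which makes retinoic acid from retinaldehyde, had 5071, 4950 and 5020 normalized counts in untreated TIGK and 1356, 1364 and 1385 after H2O2. That was a fall of 3.66-fold (log2 -1.87, SE 0.0559, edgeR adjusted p = 1.19e-14). In HaCaT it went from 4633, 4383 and 4951 to 1816, 1815 and 1802, a fall of 2.57-fold (log2 -1.36, SE 0.0550, edgeR adjusted p = 1.08e-12). LRAT, which stores retinol as esters, fell by 1.12 in TIGK and by 1.04 in HaCaT (log2, SE 0.135 and 0.138). DHRS9, a retinol dehydrogenase, fell by 2.32 in HaCaT (log2, SE 0.275, edgeR adjusted p = 2.40e-06). STRA6, the retinol uptake receptor, is among the genes counted as fallen in both lines, but it passed the filter mainly through untreated TIGK and is named after its values were seen, so its counts are given with no test. TIGK had 45, 42 and 41 raw counts untreated and 4, 4 and 0 after H2O2. HaCaT had 4, 4 and 20 untreated and 1, 0 and 0 after H2O2, so that Hctrl replicate 3 held most of its counts. So an enzyme that makes retinoic acid and one that stores its precursor fell in both lines, beside CYP26B1, which removes it.

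The receptors and their coregulators moved less evenly. RARA fell by 0.47 in TIGK (log2, SE 0.0999, edgeR adjusted p = 0.00132), a call lost without Thp replicate 2 (log2 -0.40), while RARG, the main retinoic acid receptor of epidermis, rose there by 0.31 (SE 0.0684, edgeR adjusted p = 0.00163), and RXRB, a shared partner, rose by 0.39 in TIGK and by 0.39 in HaCaT (SE 0.0714 and 0.0718). Of the 4 coregulators, 1 fell in TIGK and all 4 fell in HaCaT, beside 23.2% and 34.1% of all genes called. NRIP1, a corepressor that retinoic acid is known to induce, fell by 1.16 in TIGK (log2, SE 0.0714, edgeR adjusted p = 4.44e-10) and by 1.73 in HaCaT (SE 0.0728, edgeR adjusted p = 1.89e-12). In HaCaT the genes that rose were PNPLA4, a lipase that acts on retinyl esters (log2 0.53, SE 0.110), DGAT1, an acyltransferase (0.34, SE 0.0758), RDH11, a retinal reductase (0.25, SE 0.0556), and RXRB.

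The responses of the lines differed for 4 of the 27 genes (14.8%, beside 5.30% of all genes). The TIGK response exceeded that of HaCaT by 0.56 for NRIP1 (log2, SE 0.101, edgeR adjusted p = 0.00110), by 0.50 for PPARD, a nuclear receptor (SE 0.0981, edgeR adjusted p = 0.00273), and by 0.44 for RARG (SE 0.0968, edgeR adjusted p = 0.00563). For ALDH1A3 it was lower by 0.51 (log2 -0.51, SE 0.0771, edgeR adjusted p = 0.000227). The count was 2 without Hctrl replicate 1 and 7 without Hhp replicate 1. PPARD lost its call without Hctrl replicate 1 (log2 0.48), and RARG lost it without Tctrl replicate 1 or any single Hctrl replicate (0.43 to 0.45). Between the untreated lines 12 genes were higher in HaCaT and 6 in TIGK, and these 66.7% lay near the 59.9% of all genes called. They include ALDH1A1, which passed the filter only through HaCaT, and CYP26C1, RARRES3 and STRA6, which passed it only through TIGK. For these a difference between the lines was built in by the filter. The intracellular carriers were on the TIGK side: FABP5 (log2 -3.68, SE 0.138) and CRABP2, which hands retinoic acid to its receptors (-2.12, SE 0.112), were 12.8-fold and 4.35-fold lower in HaCaT. DHRS9 (log2 2.24, SE 0.271), PNPLA4 (1.20, SE 0.117), RDH11 (1.18, SE 0.0572) and TGM2, a transglutaminase (1.05, SE 0.229), were higher in HaCaT. NCOA3, a coactivator, was lower there (log2 -0.47, SE 0.0550).

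**Figure D4:**
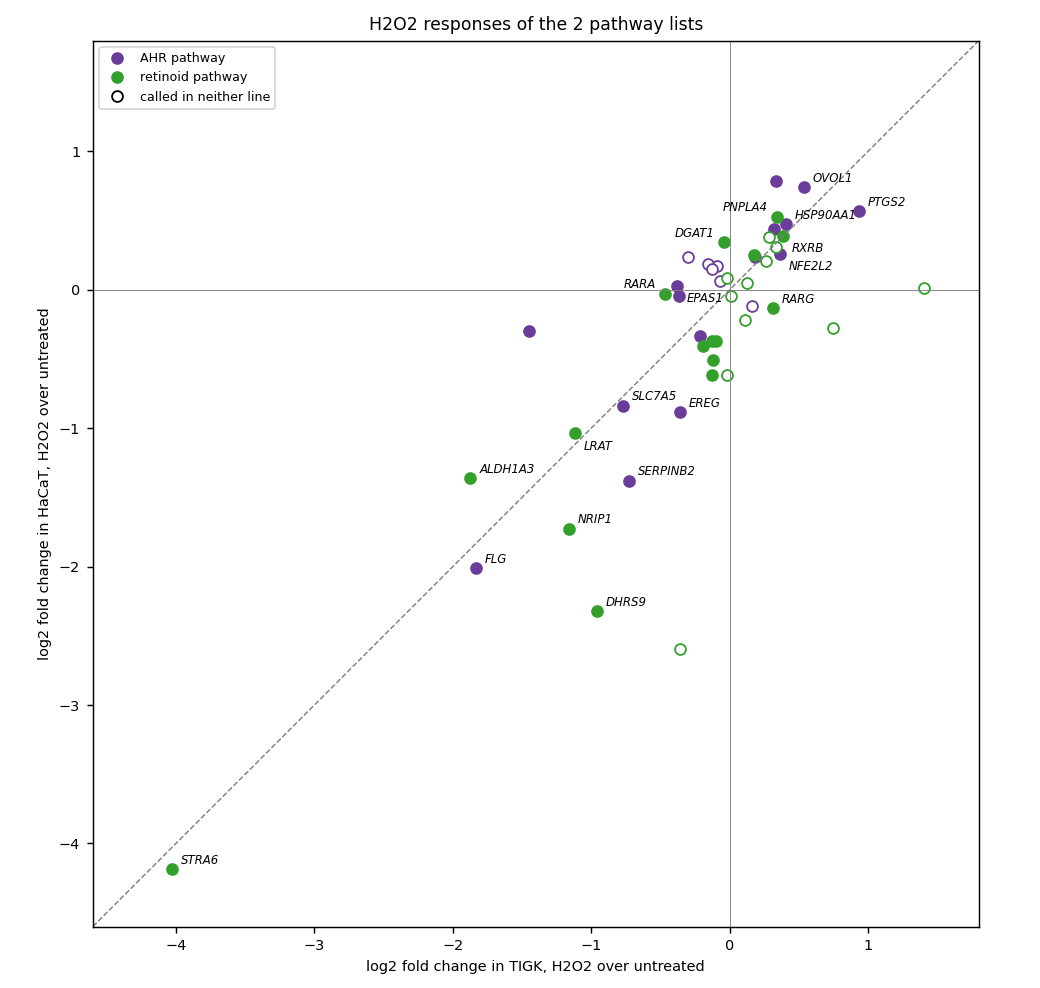
Log2 fold change of H2O2 over untreated in TIGK (horizontal axis) and HaCaT (vertical axis) for the tested genes of the AHR pathway list (21, purple) and the retinoid pathway list (27, green). Open circles were called in neither line, the dashed line marks equal responses, and labels mark some of the genes named in the text. ALDH1A3, LRAT, NRIP1 and FLG lie below 0 on both axes, STRA6 lies farthest out on few counts, and the genes that rose lie within 1 log2 unit of 0.

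The redox partners, which feed electrons to P450 enzymes of the endoplasmic reticulum, did not go down with CYP1A1 and CYP26B1. All 3 were called in HaCaT and 1 in TIGK, beside 34.1% and 23.2% of all genes. In HaCaT POR, the P450 reductase, rose by 0.27 (log2, SE 0.0673, edgeR adjusted p = 0.00325), CYB5A, cytochrome b5, by 0.56 (SE 0.104, edgeR adjusted p = 0.000271) and CYB5R3, its reductase, by 0.27 (SE 0.0590, edgeR adjusted p = 0.00110). In TIGK CYB5A rose by 0.44 (log2, SE 0.107, edgeR adjusted p = 0.00342), and POR (-0.0023, SE 0.0653) and CYB5R3 (0.059, SE 0.0606) did not pass. The 3 differences between the responses missed the limit (edgeR adjusted p from 0.0694 to 0.682), and 2 of them had an unadjusted p under 0.05. Untreated HaCaT had less POR than TIGK (log2 -0.82, SE 0.0667) and more CYB5R3 (1.01, SE 0.0603) and CYB5A (0.50, SE 0.107).

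Across the 12 libraries, the genes whose log2 CPM followed CYP1A1 most closely were TFPI2, TMEM33 and CENPN, with Pearson r of 0.997, 0.995 and 0.995. NT5E and FRMD4A were among the closest to CYP26B1, each with r of 0.995. The libraries fall into the 2 lines, which differ in many genes: 1405 genes reached an r of 0.95 with CYP1A1 and 691 with CYP26B1. These values describe likeness over the 4 groups and carry no test.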

How the data were processed

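Polyadenylated RNA of 12 samples was sequenced in paired reads of 150 bases. As deposited by the authors, the values were raw counts of reads on each gene of GRCh38, in 1 table with gene lengths. The submitters' processing notes name HISAT2, StringTie 1.3.3b and featureCounts 1.5.0-p3, with HISAT2 given as both 2.0.5 and 2.0.0. Strand use, multi-mapping and the annotation release are not given in the sources used here. The authors' own fold changes and adjusted p-values, also deposited, were not used.

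The tests were run with edgeR 4.0.16 in R 4.3.3. Genes averaging 10 or more raw counts per library were kept, TMM-normalized, and fitted with 1 mean per group over all libraries in the quasi-likelihood test. The limit on the adjusted p was 0.01, as in the study's lists. RPKM was computed here from normalized counts and the table's lengths, and log2 CPM with a prior count of 2. Intervals have a level of 95%. A floor of 3 counts per library was used where a group had 0 counts. Floors on few counts cover counting error only. All 12 replicate pairs differed by more than sampling noise (chi-square per degree of freedom 4.57 to 30.3). Each library was counted as a replicate, though such an excess does not show that the cultures were separate.

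The members and lists were chosen with earlier results of these data known, and the lists were written from general knowledge. Named were all members, the redox partners, and from each pathway list up to 4 genes per direction and comparison with the largest fold change among those called, given a mean of 100 or more normalized counts in either group. The 3 closest genes by Pearson r were picked for CYP1A1 and CYP26B1. Some genes picked by these rules are not reported here. STRA6, the genes given in counts of up to 5 and the described AHR targets called in neither line were added after their values were seen. Alternatives were DESeq2 1.42.0, fits on the groups compared alone, RLE or total-count scaling, no filter, a limit of 0.05, a replicate block and leaving out each library. The scripts were tested on simulated data. The window search used Python 3.11.15 and the figures matplotlib 3.10.9.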

Additional observations from a re-analysis of the deposited data

Results flagged for a closer look

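Several genes responded to H2O2 differently in TIGK and HaCaT, by the edgeR test of the difference itself (TIGK minus HaCaT, log2, adjusted p under 0.01). Among the members these were TIPARP (1.12) and CYP1B1 (0.86). TIPARP rose in TIGK, and CYP1B1 fell in HaCaT. On the AHR pathway list the difference was -0.40 for EPAS1, -0.33 for HIF1A, 0.65 for SERPINB2 and 0.52 for EREG. Of the 12 fits with 1 library left out, 9 lost the call of HIF1A, 8 that of EREG, 7 that of SERPINB2 and 3 that of EPAS1. On the retinoid pathway list the difference was -0.51 for ALDH1A3, 0.56 for NRIP1, 0.50 for PPARD and 0.44 for RARG. No group had the 4 samples needed to look for a sample far from the others. As a description, Hhp replicate 3 differed from replicates 1 and 2 by a chi-square per degree of freedom of 30.3 and 20.5, against 10.0 between those. For Tctrl replicate 3 the values were 15.8 and 12.3, against 5.52.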

How the results depend on the processing

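The counts of members called stayed within 1.5 times under every alternative that gave a value. At a limit of 0.05, the retinoid genes called in TIGK went from 7 to 12, all genes called in TIGK from 3850 to 5998, and the calls on the difference of responses from 4 to 7 (AHR pathway), 4 to 8 (retinoid pathway) and 881 to 2019 (all genes). DESeq2 called 1403 genes on that difference. The replicate block gave 2, 2 and 539, and leaving out 1 library each 0 to 5, 2 to 7 and 536 to 1092 (536 and 571 without Thp replicates 2 and 3, 558 and 577 without Hctrl replicates 1 and 2). With the block, OVOL1 in TIGK and the differences of EREG, HIF1A, PPARD and RARG lost their calls, and no other named gene did. Replicate numbers did not pair the samples: same-numbered samples of a line correlated by -0.031 to 0.0090 in their deviations from the group means.

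Values near 0 that were never called changed sign. The difference of the AHR responses was 0.0083 without the filter and -0.11 to 0.067 with 1 library left out. DHRS3 in TIGK was 0.00075 without the filter (-0.20 to 0.11 with a library left out). RARB in HaCaT was 0.00047 with total counts (-0.25 to 0.16). CYP1B1 between untreated lines was -0.0023 with DESeq2, -0.0075 with the groups alone, -0.0024 with RLE and -0.065 with total counts (-0.025 to 0.038). The cause was not tested. Depth limits CYP26A1 and RARB.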
